A study of Homo sapiens with 3 samples.

Results

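The genes described here encode integrins, laminins and collagens, taken as all probe sets paired with exactly 1 gene symbol of these families, and they number 77 of the 19775 genes measured. Among them were 24 integrin, 10 laminin and 43 collagen genes, read by 203 probe sets. Expression was measured on Affymetrix HG-U133 Plus 2 arrays in MDA-MB-231, an established human breast cancer line of mesenchymal-like character that is known to lack oestrogen receptor alpha. There was 1 array per group: 1 µM ERα17p (a peptide taken from the sequence of oestrogen receptor alpha), 1 µM estradiol, and 0.1% ethanol as vehicle. In every group a 4 h incubation with 10% serum that charcoal had stripped of steroids came before the 3 h of treatment. No source used here names the peptide's solvent. With 1 array per group there was no replicate error and no test, so every difference below describes these 3 arrays.

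Integrins are cell surface receptors made of 1 alpha and 1 beta chain, and they tie the cytoskeleton to the matrix outside the cell. Laminins are secreted trimers of an alpha, a beta and a gamma chain that, with type IV collagen, form basement membranes. Collagens are triple-helical matrix proteins that build fibrils, networks, beaded filaments or fibril coats. In invasive breast cancer cells, these receptors and ligands are known for their part in adhesion and migration.

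The deposited values are taken here as log2, since no source states the base of the logarithm, and every fold rests on that. They carry a centring of each probe set on a level that no source describes, so that each array had a median of 0. A value therefore gives no expression level, and differences between arrays are given as log2 differences. Whether a gene lay near the detection limit, and whether the cells carried the defining markers of the line, cannot be read from such values. A gene's value is the median of its probe sets on an array. Genes at least 1.5-fold apart (a log2 difference of 0.58 or more) were counted, and 2-fold was used as a stricter limit.

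The vehicle array stood apart from the treated arrays in controls added to the RNA. Labelling spikes, bacterial transcripts added before labelling, had a median difference of 2.04 for ERα17p minus vehicle, 2.03 for estradiol minus vehicle and 0.00 between the treated arrays (27 probe sets). Hybridisation spikes had medians of -0.93, -0.74 and -0.15 in the same comparisons (18 probe sets). The probe sets for 18S ribosomal RNA had medians of 0.67, 0.11 and 0.53, and the ACTB control probe sets -0.28, 0.18 and -0.31 (3 probe sets each). All probe sets together had an SD of 0.241 with ERα17p, 0.260 with estradiol and 0.494 with vehicle. The part of these differences between arrays in the results below was not tested. Quantile normalisation, used below as an alternative, gives all 3 arrays the same distribution. By construction it narrows the vehicle values and widens the treated ones, so shifts under it are partly fixed in advance. Markers of other cell types were read as differences only: of 5 blood cell markers, LYZ was at least 1.5-fold higher than vehicle with ERα17p (0.78, against 0.39 with estradiol) and CD14 with estradiol (0.75, against 0.44 with ERα17p). Of 6 fibroblast markers 0 were higher with ERα17p and 1 with estradiol, and of 6 endothelial markers KDR was higher with both. None of these 17 markers was 1.5-fold lower than vehicle.

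The shares of these genes above vehicle were close to those of all genes at 1.5-fold, and the shares below vehicle were smaller. On the ERα17p array 8 of 77 (10.4%) were at least 1.5-fold higher than on the vehicle array, against 9.27% of all genes, and 3 of 77 (3.90%) were lower, against 8.53%. On the estradiol array 8 of 77 (10.4%) were higher, against 10.4% of all genes, and 1 of 77 (1.30%) was lower, against 8.25%. The median difference of the 77 genes was 0.03 for ERα17p and 0.03 for estradiol, beside 0.00 and 0.00 over all genes. At 2-fold, ERα17p had 5 higher (6.49%) and 0 lower, against 3.21% and 2.44% of all genes, and estradiol had 4 higher (5.19%) and 1 lower (1.30%), against 3.82% and 2.14%. Both comparisons used the same vehicle array. The 8 higher genes were the same in both, COL4A2 was lower in both, and 66 of 77 genes lay within 1.5-fold of vehicle with either treatment. Taken singly, 66 of 77 lay within it with ERα17p and 68 with estradiol, beside 16254 and 16095 of all 19775 genes.

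A small group of genes had large differences. COL6A3, COL15A1, COL4A5 and ITGA2 were at least 2-fold higher than vehicle with both treatments, and LAMC1 lay at that limit. ITGA6, ITGB2 and ITGAV were higher by between 1.5-fold and 2-fold. Integrins made up 4 of the 8 higher genes, 4 of 24 (16.7%) with each treatment, against 9.27% and 10.4% of all genes. With either treatment 0 of 24 integrins and 0 of 10 laminins were 1.5-fold lower, against 8.53% and 8.25% of all genes. At such shares families of this size hold few lower genes, so these counts of 0 do not set them apart. After quantile normalisation 2 integrins were higher with estradiol, and 1 laminin was lower with ERα17p. Collagens lay on both sides, at 1.5-fold each time below the share of all genes. For ERα17p 3 of 43 (6.98%) were higher and 3 (6.98%) lower, and for estradiol 3 (6.98%) were higher and 1 (2.33%) lower. At 2-fold 3 of 43 (6.98%) were still higher with each treatment, above the 3.21% and 3.82% of all genes. Lower at 2-fold were 0 with ERα17p and 1 (2.33%) with estradiol, against 2.44% and 2.14% of all genes.

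**Figure D1:**
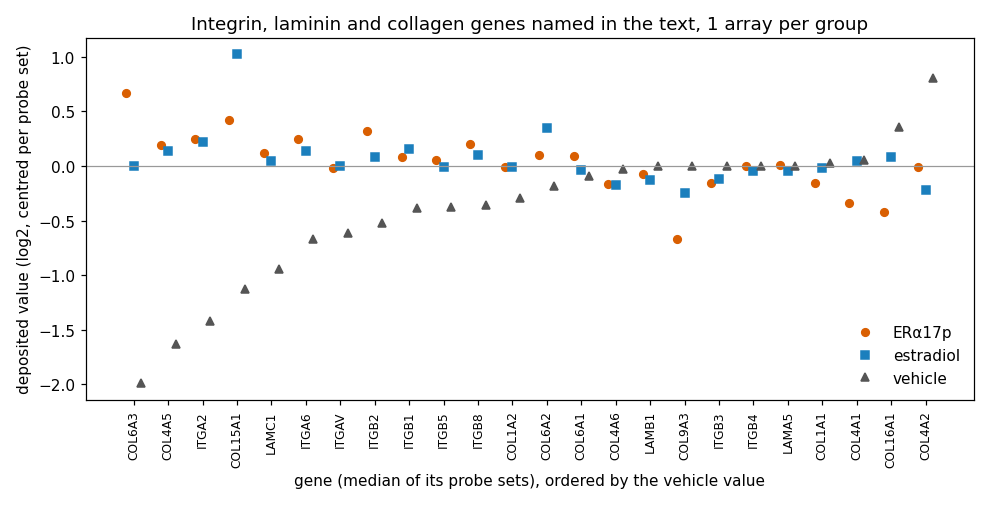
Deposited values (log2, centred per probe set) of the 24 named genes on the ERα17p, estradiol and vehicle arrays, 1 point per array, with genes ordered by the vehicle value. The vehicle points run between -1.99 and 0.80, while the treated points stay between -0.67 and 1.02.

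Promoter sequences of 4 genes are shown for context: ITGA2 and LAMC1, higher than vehicle in both of their probe sets, and COL4A2 and COL4A1, neighbours that are transcribed away from each other and differed unequally. Each window is read on the gene's own strand around the start of transcription, most of it upstream (RefSeq, GRCh38.p14), and capitals mark the Sp1 box GGGCGG, searched on both strands (CCGCCC where it lies on the opposite one).
ITGA2 (chr5:52989102-52989401, plus strand): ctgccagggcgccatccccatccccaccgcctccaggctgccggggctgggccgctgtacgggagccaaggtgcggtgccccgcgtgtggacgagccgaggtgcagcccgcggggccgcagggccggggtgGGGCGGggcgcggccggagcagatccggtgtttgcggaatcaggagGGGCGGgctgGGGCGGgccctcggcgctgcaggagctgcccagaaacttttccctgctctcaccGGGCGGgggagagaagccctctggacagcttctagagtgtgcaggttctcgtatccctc
LAMC1 (chr1:183023170-183023469, plus strand): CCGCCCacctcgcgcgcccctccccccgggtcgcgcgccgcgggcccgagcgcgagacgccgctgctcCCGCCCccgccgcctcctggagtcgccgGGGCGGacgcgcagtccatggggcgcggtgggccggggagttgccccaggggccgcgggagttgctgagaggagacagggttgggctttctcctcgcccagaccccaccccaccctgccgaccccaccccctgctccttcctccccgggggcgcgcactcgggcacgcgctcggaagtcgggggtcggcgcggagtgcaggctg
COL4A2 (chr13:110307034-110307333, plus strand): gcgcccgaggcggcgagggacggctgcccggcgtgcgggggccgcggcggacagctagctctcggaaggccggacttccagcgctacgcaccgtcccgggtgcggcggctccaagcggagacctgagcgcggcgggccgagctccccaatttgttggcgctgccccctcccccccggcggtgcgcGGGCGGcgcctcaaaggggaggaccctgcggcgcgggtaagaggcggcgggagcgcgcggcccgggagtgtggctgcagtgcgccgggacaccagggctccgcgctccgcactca
COL4A1 (chr13:110307108-110307407, minus strand): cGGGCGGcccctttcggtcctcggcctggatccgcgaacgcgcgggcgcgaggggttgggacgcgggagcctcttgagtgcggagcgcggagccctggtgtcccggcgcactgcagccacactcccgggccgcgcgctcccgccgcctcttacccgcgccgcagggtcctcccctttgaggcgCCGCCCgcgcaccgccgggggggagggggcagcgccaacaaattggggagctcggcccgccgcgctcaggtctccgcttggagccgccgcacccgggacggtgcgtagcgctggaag

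The ITGA2 window held 4 Sp1 boxes, that of LAMC1 3, that of COL4A2 1 and that of COL4A1 2. Over all promoter windows in the RefSeq table, 45.0% of 35116 held at least 1, as did 57.5% of the 73 windows found for 54 of the 77 genes. The AP-1 site TGANTCA, the oestrogen receptor half-site AGGTCA and the TATA box TATAAA were searched likewise and had no match in the 4 windows shown, so no overlap between motifs arose. The AP-1 site was in 4.11% of the windows of the 54 genes and 7.71% of all windows, the half-site in 4.11% and 13.8%, and the TATA box in 12.3% and 11.5%. These matches describe letters in the windows only. The COL4A2 and COL4A1 starts lie 127 bases apart on chromosome 13, and their windows share 226 bases, so that most of the stretch shown is common to both genes.

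Among the alpha chains, ITGA2 differed most. ITGA2 pairs with ITGB1 to form a main receptor for collagen. Its value was 0.24 with ERα17p and 0.22 with estradiol, against -1.42 with vehicle. The treated arrays lay together and above vehicle, by 1.66 for ERα17p (3.17-fold) and 1.65 for estradiol (3.13-fold). Both of its probe sets showed the difference, one at 1.67 for ERα17p and 1.48 for estradiol, the other at 1.66 and 1.81. The other collagen-binding alpha chains, ITGA1, ITGA10 and ITGA11, lay between -0.47 and 0.17 for ERα17p and between -0.03 and 0.27 for estradiol.

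ITGA6, which joins ITGB1 or ITGB4 as a laminin receptor, was at 0.24 with ERα17p and 0.13 with estradiol, against -0.67 with vehicle. The differences were 0.91 (1.88-fold) for ERα17p and 0.80 (1.74-fold) for estradiol. Its probe sets were unequal: one was at 1.46 for ERα17p and 1.32 for estradiol, and the other at 0.36 and 0.29, below the 1.5-fold limit. The other laminin-binding alpha chains did not share this: ITGA3 was at -0.47 and -0.29, and ITGA7 at 0.12 and -0.14, for ERα17p and estradiol minus vehicle.

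ITGAV, the alpha chain shared by several receptors for the RGD motif of fibronectin and vitronectin, was read by 1 probe set. It was at -0.02 with ERα17p and 0.00 with estradiol, against -0.61 with vehicle, so both treated arrays sat at the deposited centre. The differences of 0.59 (1.51-fold) and 0.61 (1.53-fold) were just past the limit, and fell short of it after quantile normalisation, at 0.42 and 0.45. The fibronectin receptor chain ITGA5 was at -0.34 for ERα17p and -0.15 for estradiol. The alpha chains of leukocytes (ITGAD, ITGAE, ITGAL, ITGAM and ITGAX) all lay between -0.25 and 0.36 from vehicle.

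The beta chains lay mostly above vehicle, though few passed the limit. Of 7 measured, 5 had differences above 0 with either treatment, with a median of 0.43 for ERα17p and 0.37 for estradiol. ITGB2, the beta chain of leukocyte integrins, was at 0.32 with ERα17p and 0.08 with estradiol, against -0.52 with vehicle. Its difference was 0.84 (1.79-fold) for ERα17p, and 0.60 (1.52-fold) for estradiol; the estradiol difference fell short of the limit as a probe set mean (0.56) and when arrays were quantile normalised (0.49). None of its 3 probe sets lay below vehicle. The leukocyte alpha chains that pair with ITGB2 showed no such difference, as given above.

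ITGB1, the common partner of most alpha chains in adherent cells, was at 0.08 with ERα17p and 0.16 with estradiol, against -0.39 with vehicle. The gene difference was 0.47 for ERα17p and 0.55 for estradiol, short of 1.5-fold. Its 7 probe sets did not agree on the size: 2 were far above vehicle, at 2.55 and 2.18 for ERα17p and at 2.47 and 2.29 for estradiol. The other 5 lay between -0.11 and 0.54 for ERα17p and between 0.15 and 0.71 for estradiol. With the mean of the probe sets the gene would count as higher, at 0.94 and 0.995. Both far probe sets carry an ID mark for matching several transcripts, but so do most of the others, so the mark does not set them apart. Without marked probe sets the gene was at 0.20 and 0.30. Those values rest on 1 probe set at 0.51 and 0.46 and 1 at -0.11 and 0.15, for ERα17p and estradiol.

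ITGB8, a partner of ITGAV that takes part in activating TGF-beta, had a similar spread. It was at 0.56 and 0.46 for ERα17p and estradiol minus vehicle, with 1 of its 5 probe sets at 2.59 and 1.92. In all, 3 of the 5 were at least 1.5-fold higher with ERα17p and 2 with estradiol. With the mean of its probe sets it too would count as higher, at 0.81 and 0.70. The median of probe set differences was past the limit for ERα17p only, at 0.60 and 0.50. Without marked probe sets ITGB8 was at 0.39 and 0.37. That setting kept the far probe set and left out those at 0.76 and 0.66 and at 0.60 and 0.50. ITGB5, another partner of ITGAV, was at 0.43 and 0.37, but 1 of its 4 probe sets was far on the other side, at -1.40 and -0.89. The 1 of its probe sets whose ID carries no mark for matching several transcripts, at 0.68 and 0.61, was past the limit. By gene value ITGB3 (-0.16 and -0.12), a partner of ITGAV in endothelium, lay near vehicle. So did ITGB4 (0.00 and -0.04), the partner of ITGA6 in hemidesmosomes. With ERα17p the single probe sets of ITGB3 lay between -0.64 and 0.17, and those of ITGB4 between -0.565 and 0.36. With estradiol they lay between -0.67 and 0.52 for ITGB3 and between -0.84 and 0.14 for ITGB4.

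**Figure D2:**
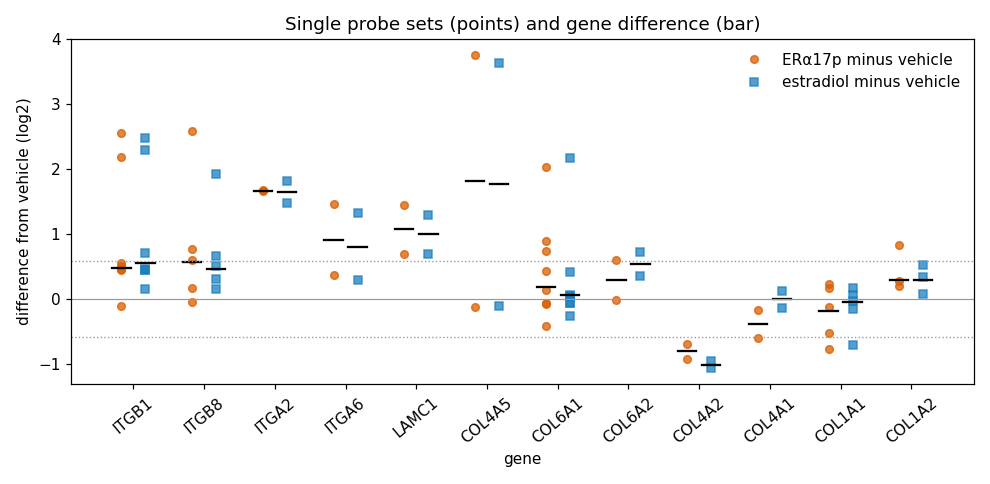
Log2 differences from vehicle of single probe sets (points, ERα17p left and estradiol right) and of the gene (bar) for 12 genes; dotted lines mark 1.5-fold. The probe sets of ITGA2 lie together between 1.48 and 1.81, while those of COL4A5 lie at 3.76 and -0.13 for ERα17p and at 3.63 and -0.11 for estradiol.

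Of the laminins, LAMC1 alone passed the limit. It encodes the gamma chain found in most laminins. Its value was 0.12 with ERα17p and 0.04 with estradiol, against -0.95 with vehicle. The differences were 1.07 (2.10-fold) for ERα17p and 0.99 (1.99-fold) for estradiol, and both of its probe sets were higher, at 0.69 and 1.45 for ERα17p and at 0.68 and 1.30 for estradiol. By gene value, chains that can assemble with it lay within 1.5-fold of vehicle. LAMA5 was at 0.01 and -0.04, LAMB1 at -0.07 and -0.12, LAMA1 at 0.53 and 0.44, and LAMB2 at -0.51 and -0.18. The probe sets of LAMA1 disagreed, at 0.71 and 0.35 for ERα17p and at 1.09 and -0.21 for estradiol. LAMA4, at 0.27 and 0.07, had 5 probe sets, between -0.05 and 1.41 for ERα17p and between -0.24 and 0.86 for estradiol. The laminin genes other than LAMC1 ranged between -0.51 (LAMB2) and 0.53 (LAMA1) for ERα17p, and between -0.19 (LAMA2) and 0.44 (LAMA1) for estradiol.

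The type VI collagens, which form beaded filaments around cells, held the largest difference among the 77 genes. COL6A3, read by 1 probe set, was at 0.67 with ERα17p and 0.00 with estradiol, against -1.99 with vehicle. The 3 arrays were all apart from one another: ERα17p was 2.66 above vehicle (6.30-fold), and estradiol 1.99 above it (3.97-fold; 1.17 after quantile normalisation). The chains that assemble with it differed less, COL6A1 by 0.18 and 0.06 and COL6A2 by 0.29 and 0.53, for ERα17p and estradiol. COL6A1 had 8 probe sets, of which 1 was at 2.03 and 2.17, while the other 7 lay between -0.42 and 0.89 for ERα17p and between -0.27 and 0.41 for estradiol.

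COL15A1 encodes a basement membrane zone collagen whose cleaved end, like that of COL18A1, is known to restrain vessel growth. Its 1 probe set was at 0.42 with ERα17p and 1.02 with estradiol, against -1.13 with vehicle. It was 1.55 above vehicle with ERα17p (2.93-fold) and 2.15 above it with estradiol (4.44-fold), the largest estradiol difference among these genes. It was also the only one of the 77 whose estradiol value lay at least 1.5-fold from the deposited centre. COL18A1, its closest relative, was at 0.35 and 0.23.

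Of 6 type IV collagens, the network formers of basement membranes, COL4A5 was higher and COL4A2 lower with both treatments, and 4 lay within 1.5-fold. COL4A2 was at -0.01 with ERα17p and -0.22 with estradiol, against 0.80 with vehicle, the highest vehicle value of the 77. It was lower by 1.75-fold with ERα17p (-0.81) and 2.03-fold with estradiol (-1.02). Both of its probe sets were lower, one at -0.93 for ERα17p and -0.97 for estradiol, the other at -0.69 and -1.08. COL4A1, the chain it assembles with, was at -0.34, 0.04 and 0.05 on the ERα17p, estradiol and vehicle arrays. COL4A1 therefore stood at -0.39 and -0.01 from vehicle, within the 1.5-fold limit, although the 2 genes share the upstream stretch printed above. After quantile normalisation the ERα17p difference of COL4A2 was -0.55, inside the limit.

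COL4A5, a chain of basement membranes of the kidney and other organs, was at 0.19 with ERα17p and 0.14 with estradiol, against -1.63 with vehicle. Its differences of 1.82 (3.52-fold) and 1.76 (3.40-fold) are midpoints of 2 probe sets that contradict each other. One was at 3.76 for ERα17p and 3.63 for estradiol, and the other at -0.13 and -0.11, so that the direction rests on 1 probe set. After quantile normalisation the gene differences were 1.14 and 1.04. COL4A6, its neighbour in the same head-to-head arrangement, was at -0.14 with either treatment. Its 3 probe sets lay between -0.87 and 0.26 for ERα17p and between -0.70 and 0.60 for estradiol.

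The fibrillar collagens, the main load-bearing fibres of stroma, stayed near vehicle. All 11 lay within 1.5-fold with both treatments, with medians of 0.04 for ERα17p and 0.10 for estradiol. Most genes did so: 16254 of all 19775 with ERα17p and 16095 with estradiol. COL1A1 was at -0.18 and -0.04, and COL1A2, its partner in type I collagen, at 0.28 and 0.28. The lowest of them was COL5A2, at -0.56 and -0.51.

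Of 10 fibril-associated collagens, which coat fibrils, 2 were lower with ERα17p. COL16A1 was at -0.42 with ERα17p and 0.08 with estradiol, against 0.35 with vehicle, a difference of -0.78 (1.71-fold lower) for ERα17p and -0.27 for estradiol. COL9A3, a chain of a cartilage collagen, was at -0.67 with ERα17p and -0.25 with estradiol, against 0.00 with vehicle, or -0.67 (1.59-fold lower) and -0.25. In both genes the ERα17p value was the lowest of the 3. Each was read by 1 probe set. COL7A1, which forms the anchoring fibrils of skin, came next among all 77 genes with ERα17p, at -0.57. With estradiol it was at -0.42, where COL5A2 and COL26A1 (both -0.51) were lower. Its values were -0.21, -0.06 and 0.36 for ERα17p, estradiol and vehicle.

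**Figure D3:**
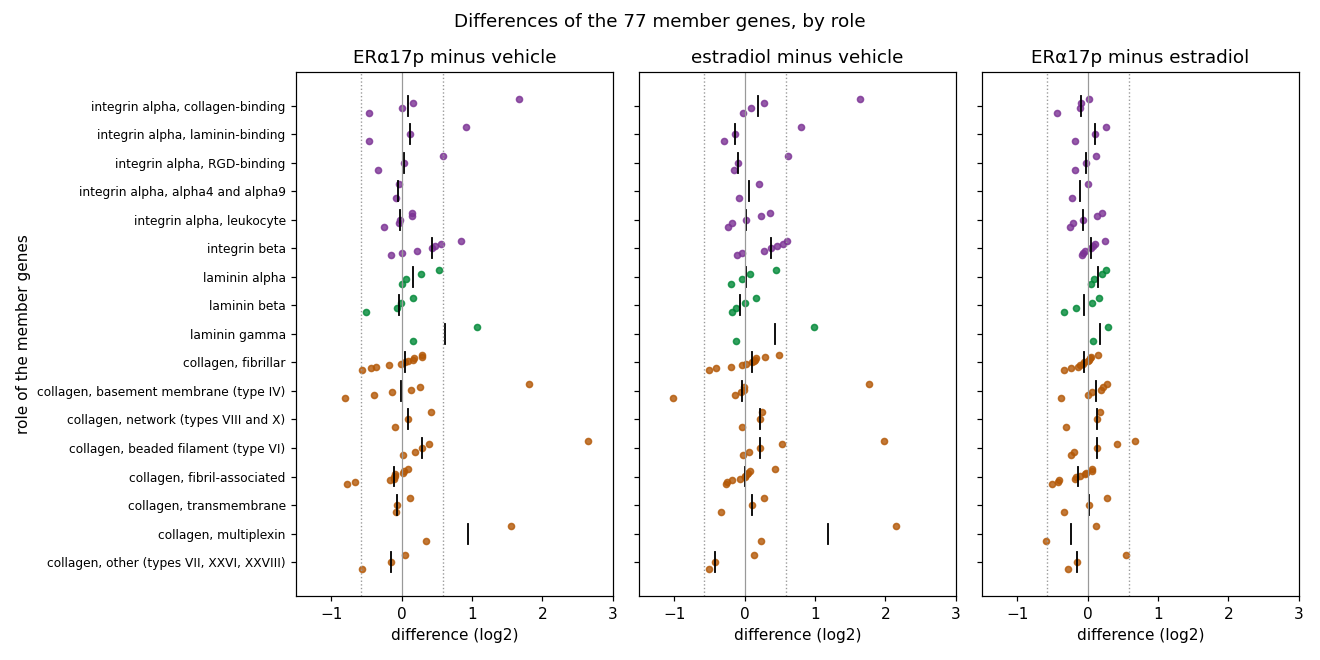
Log2 differences of the 77 genes by role, for ERα17p minus vehicle, estradiol minus vehicle and ERα17p minus estradiol; each point is a gene, black bars are medians and dotted lines mark 1.5-fold. Most genes lie between the dotted lines, and in the direct comparison 75 of 77 do.

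Between the treated arrays, a comparison without the vehicle array, few of these genes differed. COL6A3 was higher on the ERα17p array by 0.67 (1.59-fold), at 0.67 against 0.00 on the estradiol array, and COL15A1 was lower, at -0.60, with 0.42 against 1.02. The 18S ribosomal RNA median of 0.53 in this comparison was near the size of both, and its part was not tested. These were 1 of 77 in each direction (1.30%), against 1.25% of all genes higher and 2.06% lower. At 2-fold 0 of 77 differed either way, against 0.0354% and 0.212% of all genes. The median difference of the 77 genes was 0.00, beside -0.01 over all genes. COL26A1, chosen after its values were seen, came closest to the limit, at 0.55. After quantile normalisation COL16A1 (-0.67) and COL9A3 (-0.76) also lay past it. For ITGA2, LAMC1, ITGA6, ITGAV and COL4A5, the treated arrays were within 0.11 of each other.

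Most of the 77 genes lay within 1.5-fold of the deposited centre on each array. At least 1.5-fold from 0 were 2 of 77 genes with ERα17p, 1 with estradiol and 8 with vehicle, 7 of these 8 below 0. The share on the vehicle array, 10.4%, was close to that of all genes, 10.9%. On the treated arrays the shares were low for all genes too. They were 2.60% of the 77 against 1.13% of all genes with ERα17p, and 1.30% against 1.80% with estradiol. Of the genes past 1.5-fold, the vehicle value was farther from 0 than the treated value in 9 of 11 for ERα17p and 9 of 9 for estradiol. Over all genes past the limit this held for 84.8% and 81.6%. The arrays behind the centring are unknown, so this does not tell which array departed.

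Probe sets of 1 gene often disagreed. Of 59 genes with 2 or more probe sets, 22 (37.3%) had all of them on 1 side of vehicle, with ERα17p and again with estradiol. Among all 10523 such genes the shares were 44.5% and 44.9%. The median range between probe sets of a gene was 0.52 for ERα17p and 0.48 for estradiol, beside 0.58 and 0.59 over all such genes. Of the 9 genes past the limit with both treatments, COL6A3, COL15A1 and ITGAV rest on 1 probe set, and COL4A5 on probe sets of opposite sign. ITGA2, LAMC1, ITGA6, ITGB2 and COL4A2 had all their probe sets on 1 side.

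Genes that serve the same pathway were read from lists chosen, like the 77 genes, with earlier results of these data known. The counts of each list stand beside 9.27% of all genes higher and 8.53% lower with ERα17p, and 10.4% higher and 8.25% lower with estradiol. Integrin adaptors and focal adhesion proteins had medians below vehicle. With ERα17p, 8 of 27 (29.6%) lay 1.5-fold or more below vehicle and 1 above it, with a median of -0.25, and 8 of 27 (29.6%) were lower and 1 higher with estradiol, with a median of -0.33. After quantile normalisation 5 were lower with ERα17p and 4 with estradiol, and with only probe sets without such a mark 5 of 21 with ERα17p. ZYX, a focal adhesion protein that senses tension, was at -1.30 for ERα17p and -1.28 for estradiol, and its values were -0.06, -0.04 and 1.24 on the ERα17p, estradiol and vehicle arrays. FERMT3, the kindlin of blood cells, was at -1.05 and -0.75, and ITGB3BP, named for binding the tail of ITGB3, at 1.12 and 1.15.

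A list of 13 receptors for collagen and laminin other than integrins, with surface proteins tied to integrins such as CD151, had 11 genes with values. With ERα17p 5 of 11 (45.5%) were lower and 1 higher (median -0.57). With estradiol 4 of 11 (36.4%) were lower and 1 higher (median -0.23). The syndecan SDC1 was at -1.14 and -1.11 from vehicle, and SDC2 on the other side at 1.08 and 1.27. CD151, a tetraspanin that binds laminin-receptor integrins, was at -0.93 and -0.85. The luminal breast epithelium markers, for comparison, had 0 higher and 1 of 8 lower with ERα17p, and 1 higher and 1 lower with estradiol. The mesenchymal-like markers had 2 of 8 and 1 of 8 higher, and 0 lower.

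Of 15 other matrix ligands, 4 (26.7%) were higher and 0 lower with ERα17p (median 0.12), and 3 of 15 were higher and 1 lower with estradiol (median 0.08), while 11 lay within 1.5-fold with each treatment. NTN4, a netrin that binds laminin gamma chains, had the largest difference of this list, at 2.34 and 2.49 (1.40 and 1.57 after quantile normalisation), with values of 0.08, 0.23 and -2.26 for ERα17p, estradiol and vehicle. The thrombospondins THBS1 (1.23 and 0.96) and THBS2 (1.02 and 0.36), secreted glycoproteins that bind integrins, came next with ERα17p; THBS2 did not pass the limit with estradiol. FN1, which encodes fibronectin, was past the limit with both treatments, at 0.98 and 0.81.

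Of 26 genes of collagen synthesis and cross-linking, 4 (15.4%) were higher and 4 (15.4%) lower with ERα17p (median 0.04), and 3 (11.5%) were higher and 2 (7.69%) lower with estradiol (median -0.05). The lysyl oxidase relatives LOXL3 and LOXL4, which cross-link collagen, differed in opposite directions. LOXL3 was at -1.56 and -1.63, and LOXL4 at 0.86 and 0.96, for ERα17p and estradiol. After quantile normalisation LOXL4 was at 0.55 for ERα17p, inside the limit. P3H3, a collagen prolyl hydroxylase relative, was at -0.96 and -0.48.

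Matrix proteases and their inhibitors had 3 of 21 (14.3%) higher and 1 (4.76%) lower with ERα17p (median 0.02), and 7 (33.3%) higher and 1 (4.76%) lower with estradiol (median 0.23). Without probe sets that may match several transcripts, the higher ones were 1 and 2. That setting drops any gene with no other probe set, so these counts may be out of fewer than 21. TIMP1, an inhibitor of matrix metalloproteinases, was at 1.07 and 0.99, and the collagenase MMP1 at -0.78 and -1.15. TIMP4 was at -0.04 with ERα17p and 1.30 with estradiol, and its values were -0.03, 1.32 and 0.01 on the ERα17p, estradiol and vehicle arrays. It was thus high on the estradiol array alone, and -1.34 for ERα17p minus estradiol. TIMP4 was read by 1 probe set.

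**Figure D4:**
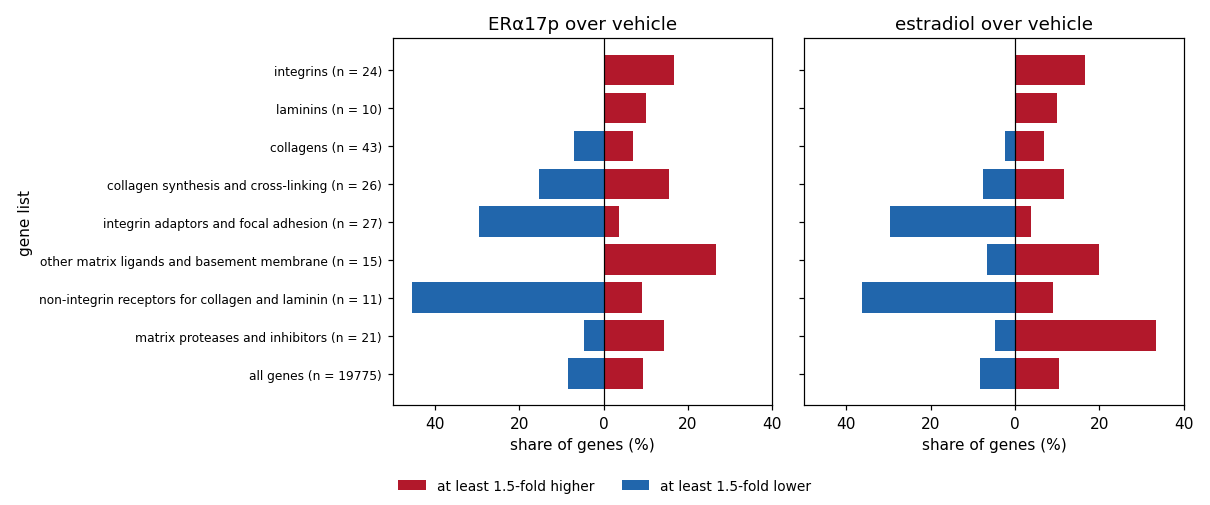
Share of genes (%) at least 1.5-fold higher (right of 0) or lower (left of 0) than vehicle, for ERα17p in the left panel and estradiol in the right panel, by family and pathway list, with all genes in the bottom row. Integrin adaptors reach 29.6% lower in both panels and integrins have none lower, beside 8.53% and 8.25% of all genes.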

How the data were processed

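RNA of 3 samples of MDA-MB-231 was hybridised to 3 arrays with 54675 probe sets, 1 per group, and groups were taken from the labels. Per the submitters' processing notes the authors used RMA, which corrects background, normalises by quantiles and summarises probes, usually on a log2 scale; no version is given. The deposited values, taken as log2, also carry a centring per probe set that no source describes, and the base of the logarithm and the reference level are unstated. The number of arrays limits the precision, and no signal or detection call was used.

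Probe sets with 1 symbol in the platform's annotation were used (41097), those with several symbols (1801) or none (11777) were not. RefSeq's table (GRCh38.p14) lists all 77 symbols. Values were summarised with Python 3.11.15, pandas 2.3.3 and numpy 2.4.6. The gene value was the median of its probe sets on each array, and a difference was that of 2 gene values. Neither test nor p-value was possible. The steps were checked on simulated data.

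The genes, lists, limits and alternatives were chosen with earlier results of these data known. Named were all genes past 1.5-fold in any comparison, the fixed partners and main chains (ITGB1, ITGAV, LAMC1, COL1A1, COL1A2, COL4A1, COL4A2), their partners in a receptor, trimer or head-to-head gene pair, and up to 3 genes per pathway list with the largest difference from vehicle. Values of other genes are given to mark the ends of a range or a near relative. The alternatives were the mean of probe sets, quantile normalisation, only probe sets whose ID has no mark of several transcripts, a 2-fold limit, and, added after the data were seen, the median of probe set differences.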

Additional observations from a re-analysis of the deposited data

Results flagged for a closer look

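The labelling spikes lie outside the gene values compared here and stood above the vehicle array. Their median difference was 2.04 for ERα17p minus vehicle and 2.03 for estradiol minus vehicle, over 27 probe sets. Their part in the differences of the integrin, laminin and collagen genes was not tested.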

How the results depend on the processing

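At a 2-fold limit the counts of higher genes were 5 for ERα17p and 4 for estradiol over vehicle, that of lower genes was 0 for ERα17p, and both were 0 for ERα17p over estradiol. Quantile normalisation gave 2 lower for estradiol over vehicle, and 2 higher and 3 lower for ERα17p over estradiol. Unmarked probe sets alone, which left 66 of 77 genes, gave 2 lower for estradiol over vehicle and 3 higher for ERα17p over estradiol. With them COL4A5 changed sign, to -0.13 for ERα17p and -0.11 for estradiol over vehicle, since only its probe set near vehicle was left. In the same setting ITGA6 fell inside the limit, at 0.36 and 0.29, and ITGB5 rose past it, at 0.68 and 0.61. The other counts over the 77 genes stayed within 1.5 times, and the median of the 77 genes moved by less than 0.1, under each of these settings, the mean of probe sets and the median of probe set differences. No paired analysis was possible because each group has 1 array and the labels give no replicate numbers. Counts of families and pathway lists moved more: after quantile normalisation 2 of 24 integrins were higher with estradiol. Without marked probe sets, 1 and 2 of the proteases and inhibitors left were higher with ERα17p and estradiol. Among the 72 differences of the 24 named genes, 10 moved after quantile normalisation. Leaving out any 1 array leaves 1 of the 3 comparisons reported.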

Other observations

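A pair of integrin genes outside the family rule were read beside the 77. ITGA2B, the alpha chain of the platelet fibrinogen receptor, had 4 probe sets between 0.04 and 0.52 for ERα17p minus vehicle and between -0.40 and 0.16 for estradiol minus vehicle. ITGB6, an epithelial partner of ITGAV, shares its 4 probe sets with a second symbol in the annotation. They lay between -0.27 and 0.46 for ERα17p and between 0.04 and 0.21 for estradiol, so none was 1.5-fold from vehicle.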
